A study of Mus musculus with 4 samples.

Results

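The cells described here are macrophage-marker cells: barcodes with transcripts of macrophages that came through a sort of visceral adipose tissue (VAT) for regulatory T (Treg) cells. They numbered 229 of the 18110 barcodes that passed the filters, or 1.26%, with 29 in KO, 27 in WT, 25 in HFD and 148 in NCD. They were chosen by measured values: 3 or more of the 8 genes Lyz2, C1qa, C1qb, Fcer1g, Tyrobp, Retnla, Ccl6 and Apoe had at least 1 unique molecular identifier (UMI, which counts a captured RNA molecule), and Cd79a, a B cell gene, had none. Each barcode also had 500 or more genes, a mitochondrial share under 10%, and 90% or more of its hashtag counts, of which there were at least 10, on a single hashtag. The presence and levels of the 8 rule genes among the members are therefore descriptions of the choice.

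The study sequenced RNA of single VAT Treg cells of male mice, captured in droplets and read from the 5′ end, in 2 separate experiments. In the first, KO cells came from 4 mice with Foxp3YFP-cre and Srebf2flox/flox, and WT cells from 4 mice with Foxp3YFP-cre and Srebf2WT/WT, all aged 25 weeks and at steady state. In the second, HFD cells came from 5 Foxp3thy1.1 PpargTdt mice fed a high-fat diet for 22 weeks and NCD cells from 5 mice of that genotype on normal chow, aged 23 to 27 weeks. The sort took live CD3+ CD4+ Foxp3+ cells, and the paired conditions were mixed 1:1 before loading. The Cre is driven by Foxp3, a Treg cell gene, in KO and WT alike, so the deletion is aimed at Treg cells and not at macrophages. The mice of a condition were pooled under 1 hashtag, so each condition is 1 sample, nothing below has a replicate check, and no p-value is given. All intervals are exact 95% intervals that cover counting error only.

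Macrophages of fat clear dying adipocytes and take up the lipid these release. Resident adipose macrophages are known for Mrc1, Folr2 and Cd163, whereas the lipid-associated macrophages that gather in obese fat around dead adipocytes are known for Trem2, Cd9, Lpl and Gpnmb. C1q, the complement protein that opens the classical pathway, is made by macrophages, while Cd209a, Flt3 and high MHC class II levels are known from dendritic cells.

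Each member was placed in its condition by its hashtag, an oligonucleotide on an antibody. These 15-base sequences, capitals throughout because every base is read, decide every comparison of conditions.
Hashtag 2 (KO): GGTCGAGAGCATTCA
Hashtag 1 (WT): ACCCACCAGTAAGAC
Hashtag 4 (HFD): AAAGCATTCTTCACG
Hashtag 3 (NCD): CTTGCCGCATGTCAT

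The macrophage-marker cells made up 29 of 4109 KO barcodes (0.706%, interval 0.473 to 1.01) and 27 of 3676 WT barcodes (0.734%, 0.485 to 1.07). They made up 25 of 4808 HFD barcodes (0.520%, 0.337 to 0.767) and 148 of 5517 NCD barcodes (2.68%, 2.27 to 3.14). The KO share was 0.961 times the WT share (0.549 to 1.69), so a difference was not detectable at this number of cells, and its interval allows a change of either sign. The HFD share was 5.16-fold lower than the NCD share (3.36 to 8.23). With every barcode thinned to 1500 UMIs, which left out 151 KO, 122 WT, 285 HFD and 134 NCD barcodes that were shallower, the shares were 0.455% in KO and 0.422% in WT, and 0.442% in HFD and 1.75% in NCD. As the cells were sorted as T cells, these shares are of what passed the sort and not of the macrophages of the tissue.

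**Figure D1:**
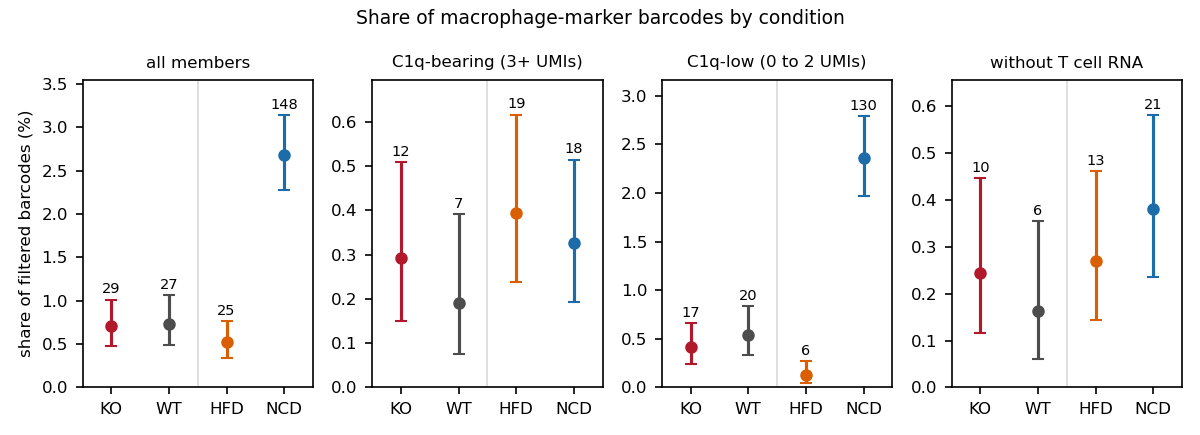
Share of filtered barcodes (%, y axis) in each condition for all macrophage-marker cells, for their C1q-bearing and C1q-low sets (3 or more, and 0 to 2, C1q UMIs) and for those without T cell RNA; points are shares, bars exact 95% intervals of counting error, and the number over each bar counts its barcodes. The lower HFD total (0.520%, against 2.68% in NCD) lies in the C1q-low set, while the C1q-bearing shares of the 4 conditions overlap.

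Members were deeper than Treg barcodes, taken as those with a Foxp3 UMI, none of the 8 rule genes and no Cd79a. The median member had 6044 UMIs in KO and 6729 in WT, against 3945 and 3818.5 in the Treg barcodes of KO and WT. In the diet experiment the median member had 28079 UMIs in HFD and 11856.5 in NCD, against 3781 and 4265 in the Treg barcodes of HFD and NCD. A single HFD member held 152723 UMIs, 21.9% of all UMIs of HFD members, so summed HFD levels lean on it. The libraries of the 2 experiments shared 135 barcode strings, none of them a member's.

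Near the threshold, other macrophage transcripts were few in barcodes with 2 of the 8 rule genes (not members) and more in those with 3 (members). On a list of 20 macrophage genes outside the rule, such as Csf1r and Adgre1, barcodes with 2 rule genes had a median of 1 UMI in KO (19 barcodes), 3 in WT (11), 1 in HFD (12) and 3 in NCD (51). Barcodes with 3 rule genes had a median of 7 UMIs in KO (7 barcodes), 13 in WT (9), 3 in HFD (5) and 11.5 in NCD (18). Barcodes with none of the rule genes and no Cd79a had a median of 1 UMI in each condition. In HFD 8 of 25 members had 3 or 4 rule genes, near the threshold, and 15 had 7, and the 15 held a median of 546 UMIs of the 20-gene list. In NCD the commonest count was 4 rule genes, found in 69 of 148 members.

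The label of macrophages fitted only a minority of the members. C1qa, C1qb and C1qc, which encode the chains of C1q, split them: members with 3 or more UMIs of these genes are called C1q-bearing below and the others C1q-low. The value of 3 was set after the data were seen. C1q-bearing members numbered 12 of 29 in KO, 7 of 27 in WT, 19 of 25 in HFD and 18 of 148 in NCD. The sum is a range rather than a type: 1 or 2 of the UMIs were found in 3 KO, 3 WT, 4 HFD and 11 NCD members, and 3 to 5 in 2 KO, 0 WT, 2 HFD and 7 NCD members. As shares of filtered barcodes, C1q-bearing members made up 0.395% in HFD and 0.326% in NCD, a ratio of 1.21 (0.602 to 2.45), and 0.292% in KO and 0.190% in WT, a ratio of 1.53 (0.557 to 4.60). C1q-low members made up 0.125% in HFD and 2.36% in NCD, 18.9-fold lower in HFD (8.44 to 52.4), and 0.414% in KO and 0.544% in WT, a ratio of 0.760 (0.374 to 1.53).

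Identity genes outside the rule divided along the same line. At least 2 of Csf1r (the receptor of the macrophage growth factor), Adgre1 (F4/80), Fcgr1 and C1qc were detected in 8 of 12 KO, 6 of 7 WT, 17 of 19 HFD and 13 of 18 NCD C1q-bearing members. Among C1q-low members this held in 3 of 17 in KO, 4 of 20 in WT, 1 of 6 in HFD and 30 of 130 in NCD. One or more of the dendritic cell genes Cd209a, Flt3, Zbtb46, Clec9a and Xcr1 was found in 10 of 17 KO, 10 of 20 WT, 0 of 6 HFD and 86 of 130 NCD C1q-low members, and in 1 of 12 KO, 2 of 7 WT, 0 of 19 HFD and 3 of 18 NCD C1q-bearing members. These counts go against the name for most C1q-low members, which are therefore called by the rule and not by a cell type. C1qc is itself part of the C1q split, so its part in the first count is a description.

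The C1q-low members of NCD, 130 of all 229, held mixed myeloid transcripts at high depth, with a median of 12148.5 UMIs. Cd74, the invariant chain of MHC class II, had 38848 UMIs there, in 125 of 130 cells with a median of 300.5 per cell, and H2-Aa, a class II chain, had 12937 UMIs in 117 cells. Cd209a, a C-type lectin of monocyte-derived dendritic cells, had 1455 UMIs in 77 cells, and Flt3, a growth factor receptor of dendritic cells, had 130 UMIs in 57 cells. Most of these cells thus carried class II transcripts and more than 1 in 2 carried Cd209a. Retnla, which encodes RELMα and marks alternative activation, had 3936 UMIs in 50 cells, 47 of them with 2 or more, and Retnla and Cd209a were both found in 21. Lyz2, the lysozyme of myeloid cells, had 5768 UMIs in 123 cells, and Ccr2, the receptor by which monocytes enter tissue, had 1043 UMIs in 124 cells. The 6 C1q-low members of HFD had no Retnla, Cd209a or Flt3 UMI and only 4 of Cd74, but 27585 UMIs in all, so of the absences that of Cd74 is the best measured.

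B barcodes, those with Cd79a and Ms4a1 UMIs, served as a background. Their median depths were 6639 UMIs in KO, 6364 in WT, 4517 in HFD and 7658.5 in NCD. They came through the same sort as the members, so free RNA and a second cell in the droplet cannot be told apart in them. Lyz2 was found in 0 of 53 KO, 0 of 85 WT, 0 of 108 HFD and 6 of 284 NCD B barcodes, and C1qb in 0, 0, 1 and 1 of them in the same order. Lyz2 and C1qb were thus rare in B barcodes. Members were chosen by these genes among others, so higher levels in members follow from the choice. Apoe carries lipid between cells. It was found in 15 of 53 KO, 21 of 85 WT, 33 of 108 HFD and 80 of 284 NCD B barcodes. Of the rule genes given here, Apoe was thus the one found in the most B barcodes. Apoe was found in 16 of 29 KO, 13 of 27 WT, 20 of 25 HFD and 29 of 148 NCD members. In NCD this share was no higher than in B barcodes. Of barcodes without Cd79a, 3811 in KO, 3389 in WT, 4475 in HFD and 4813 in NCD had no rule gene, Apoe included. Those with 1 rule gene numbered 172, 137, 133 and 156 in the same order. The Apoe level of B barcodes was therefore not that of barcodes without Cd79a, and its source was not tested.

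T cell RNA was common in the members. A Cd3e UMI, from a chain of the T cell receptor complex, was found in 17 of 29 KO members (58.6%, 38.9 to 76.5) and 19 of 27 WT members (70.4%, 49.8 to 86.2). It was found in 11 of 25 HFD members (44.0%, 24.4 to 65.1) and 119 of 148 NCD members (80.4%, 73.1 to 86.5). Foxp3, the transcription factor of Treg cells, was found in 41.4% of KO, 51.9% of WT, 4 of 25 HFD and 54.7% of NCD members. In B barcodes, whose B cells should lack both, Cd3e was found in 43.4% in KO, 50.6% in WT, 40.7% in HFD and 63.4% in NCD, and Foxp3 in 30.2%, 27.1%, 19.4% and 33.5%. In HFD the members' shares of both genes were at the level of B barcodes, and in NCD they lay above it. Some B barcodes may hold a T cell as well, so their level is not one of free RNA alone.

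Summed over Cd3e, Cd3d, Cd3g, Trac, Trbc1, Trbc2 and Foxp3, the median member had 5 UMIs in KO, 10 in WT, 0 in HFD and 8 in NCD, against 13, 11, 14 and 12 in Treg barcodes. In B barcodes the medians were 1, 5, 0 and 7 in the same order, and the highest values 23, 47, 68 and 47. Among members the WT median lay closest to that of its Treg barcodes, and the HFD median farthest below. The 7 genes had no UMI in 10 KO, 6 WT, 13 HFD and 21 NCD members. As a share of filtered barcodes, members with T cell RNA were 9.22-fold lower in HFD than in NCD (5.10 to 18.3). Members without it made up 0.270% in HFD and 0.381% in NCD, a ratio of 0.710 (0.327 to 1.49), so without T cell RNA the difference in share was not detectable. Among C1q-bearing members the order was the other way: 13 of 4808 HFD and 3 of 5517 NCD barcodes were C1q-bearing and without T cell RNA, a ratio of 4.97 (1.37 to 27.2).

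Depth moved with T cell RNA in opposite ways in the diet conditions. HFD members without T cell RNA had a median of 35766 UMIs and those with it 4230.5, whereas NCD members without it had a median of 7995 and those with it 13216. Members with 20000 or more UMIs numbered 14 in HFD, 11 of them without T cell RNA, and 22 in NCD, none of them without it. Barcodes with under 90% of their hashtag counts on either hashtag were called mixed. In the diet pool 29 of 801 mixed barcodes met the marker rule (3.62%, 25 of them with T cell RNA). With 1 hashtag 173 of 10325 met it (1.68%, 139 of them with T cell RNA). In the Srebf2 pool 9 of 810 mixed barcodes met it (1.11%, 4 of them with T cell RNA). There 56 of 7785 barcodes with 1 hashtag met it (0.719%, 40 of them with T cell RNA). Mixed barcodes were also deeper, with a median of 5291 UMIs against 3730 in the diet pool and 4819 against 3643 in the Srebf2 pool. The part of depth in these shares was not tested. Droplets that hold 2 cells of 1 condition cannot be found by hashtags, and their part in the members with T cell RNA was not tested. Cd8a, a marker of CD8 T cells, was found in 1 NCD member and in none of the other 3 conditions.

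**Figure D2:**
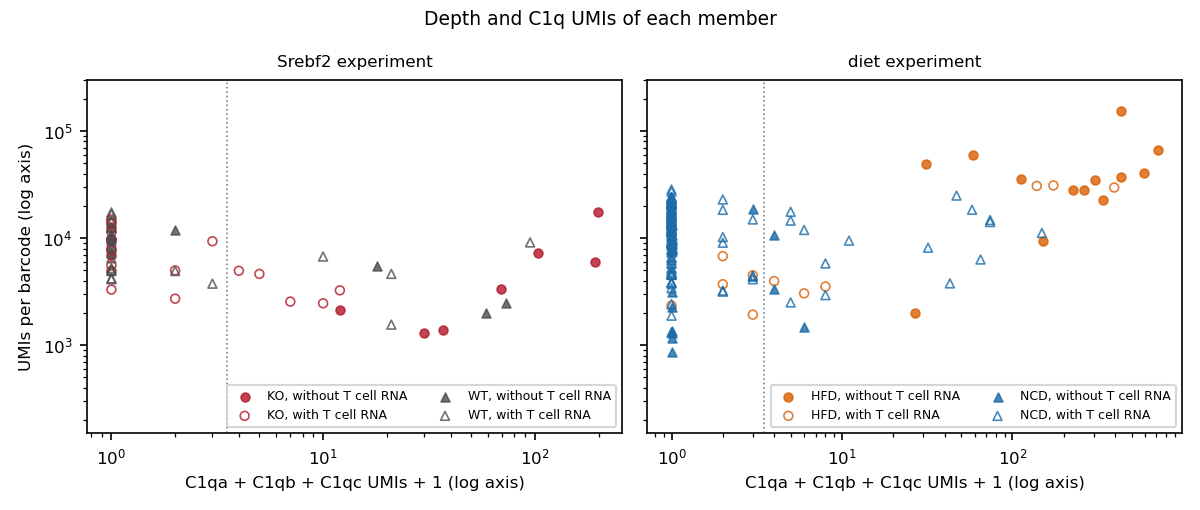
UMIs per barcode (y, log axis) against the summed UMIs of C1qa, C1qb and C1qc plus 1 (x, log axis) for each member, in the Srebf2 experiment (left) and the diet experiment (right); filled symbols have no T cell RNA, open symbols have it, and the dotted line is the C1q split. The 13 HFD members without T cell RNA have 26 or more C1q UMIs, and 11 of them 20000 or more UMIs in all, whereas 119 of 148 NCD members line up at the left with 0 C1q UMIs.

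The rule genes differed in level among the conditions. Lyz2 was found in 27 of 29 KO members (median 9 UMIs, highest 242), 23 of 27 WT members (7, 319), 22 of 25 HFD members (96, 947) and 141 of 148 NCD members (13, 497). Tyrobp, an adaptor of activating myeloid receptors, had a median of 9 UMIs in KO, 6 in WT, 70 in HFD and 13 in NCD, and Fcer1g, the Fc receptor gamma chain, 6 in KO, 6 in WT, 42 in HFD and 11.5 in NCD. Ccl6, a chemokine, had a median of 1 UMI in KO, 1 in WT, 22 in HFD and 6 in NCD. These 4 genes were found in most members of every condition, at the highest medians in HFD, whose members were also the deepest. C1qb was found in 14 KO, 8 WT, 21 HFD and 25 NCD members, at 1074 counts per 1000000 UMIs of the summed members (CPM) in KO and 551 CPM in WT, and at 2856 CPM in HFD and 181 CPM in NCD. The C1q genes were thus found in most HFD members and in few NCD members. Apoe stood at 7345 CPM in KO and 2639 CPM in WT, and at 3651 CPM in HFD and 459 CPM in NCD.

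Over Treg barcodes, 15 genes outside the rule led the members: Clec10a, Fcrls, Mmp12, Cd300c2, Il1b, Cd209a, Cd300a, C1qc, Trem2, Ms4a7, Mgl2, Cd209c, Clec4b1, Ifitm6 and Ccl9. Clec10a, a galactose-binding lectin, stood at 136 CPM in KO and 297 CPM in WT, and at 83.3 CPM in HFD and 302.2 CPM in NCD. Mmp12, the macrophage elastase, had no UMI in KO or WT and stood at 6924 CPM in HFD and 0.557 CPM in NCD. Cd209a stood at 462 CPM in KO and 551 CPM in WT, and at 814 CPM in NCD with no UMI in HFD. Il1b, an inflammatory cytokine, stood at 554 CPM in KO and 189 CPM in WT, and at 27.3 CPM in HFD and 232 CPM in NCD. Others were present in all 4 conditions: Cd300a, an inhibitory receptor, ranged from 139 to 290 CPM and Ccl9, a chemokine, from 231 to 541 CPM. In these sums, fewer cells of a type and less RNA per cell cannot be told apart.

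**Figure D3:**
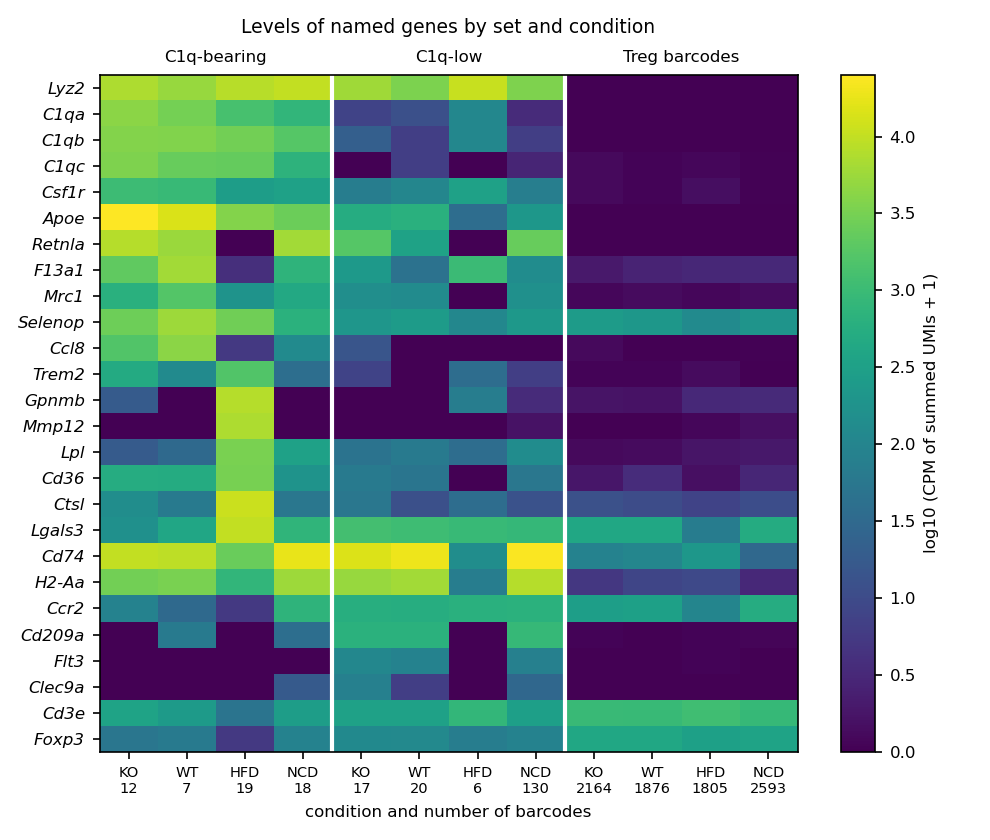
Levels of 26 named genes (rows) as log10 of CPM plus 1 (colour) in C1q-bearing members, C1q-low members and Treg barcodes of KO, WT, HFD and NCD (columns, with the number of barcodes). The rule genes are at 0 in Treg barcodes by choice. Gpnmb and Mmp12 are brightest in the C1q-bearing HFD column, Retnla is dark in both HFD member columns, and Cd209a is bright in the C1q-low columns of KO, WT and NCD.

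The diet experiment set a high-fat diet against normal chow. HFD members and NCD members differed at 3594 of 8889 genes with 20 or more UMIs over both conditions by at least 2-fold, a limit on size with no test behind it: 1049 genes (11.8%) were higher in HFD and 2545 (28.6%) lower. All 16 genes of a lipid-associated macrophage list were 2-fold higher in HFD members, with a median log2 ratio of 5.70 beside -0.36 for all genes, and their sum was 57070 CPM in HFD and 1779 CPM in NCD. The lists were chosen with earlier results of these data known, so such counts are descriptions and not independent support. Mmp12, Gpnmb, Ctsl and Atp6v0d2 of this list are among the 12 highest ratios. All 9 measured MHC class II genes were 2-fold lower, with a median of -3.44, and 16 of 18 lysosome genes were higher, with a median of 2.80. Lists here and below share genes, so their counts are not separate results. Ctsl stands in the lipid-associated and lysosome lists, and Lipa in the lipid-associated and sterol lists. Trem2 stands in the identity, lipid-associated, scavenger receptor and Fc receptor lists. T cell genes (11 of 14 lower, median -1.85) and Treg genes (10 of 12 lower, median -3.19) were lower as well, and the C1q-bearing cells were 19 of 25 HFD and 18 of 148 NCD members. The part of this makeup in each list was not tested. The comparisons that follow are therefore within C1q-bearing members, 19 in HFD and 18 in NCD, where 885 of 5240 genes (16.9%) were 2-fold higher in HFD and 1288 (24.6%) lower. These members had a median of 30742 UMIs in HFD and 10090.5 in NCD, and the limit of 3 C1q UMIs was the same at any depth. Counts of cells with a gene therefore depend on depth as well. A single barcode held 22.8% of the HFD UMIs of this set and another 13.7% of the NCD UMIs.

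Among C1q-bearing members all 16 lipid-associated genes were again 2-fold higher in HFD than in NCD, with a median log2 ratio of 4.99 beside -0.18 for all genes. The list is the same, so this count is a description too. Their sum took a median of 3.90% of the UMIs of a single HFD member (0.0656 to 10.2%) and 0.229% of an NCD member (0.0345 to 0.518%). The highest NCD member thus stood below the median HFD member. Without T cell RNA, 13 HFD members, all C1q-bearing, lay between 0.793% and 10.2%. The 21 NCD members without it lay between 0.0878% and 0.575%, but only 3 of them were C1q-bearing. The other 18 were C1q-low, and 12 of these had 1 or more of Cd209a, Flt3, Zbtb46, Clec9a and Xcr1. These HFD and NCD cells thus differed in makeup, and cells of 1 pool are not replicates. The C1q-bearing members of the Srebf2 experiment were like those of NCD, at 0.0406 to 0.507% in KO and 0.0432 to 0.450% in WT. In the same C1q-bearing cells the T cell list summed to 342 CPM in HFD and 1769 CPM in NCD, and T cell RNA was found in 6 of 19 HFD and 15 of 18 NCD members.

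**Figure D4:**
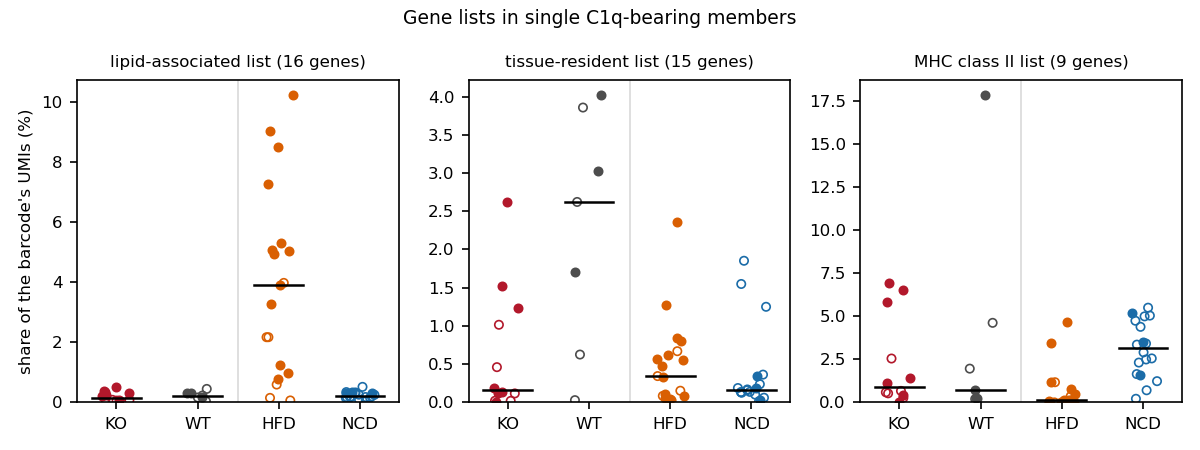
Share of a barcode's UMIs (%, y axis) taken by the lipid-associated, tissue-resident and MHC class II lists in single C1q-bearing members of KO, WT, HFD and NCD; filled points have no T cell RNA, open points have it, and black lines are medians. The lipid-associated median is 3.90% in HFD and 0.229% in NCD, and the class II median 0.113% in HFD and 3.14% in NCD.

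Gpnmb, a membrane glycoprotein of lipid-laden macrophages, had 5552 UMIs in HFD and 0 in NCD C1q-bearing members, and 1 in KO and 0 in WT. It was found in 13 of 19 HFD cells, with a median of 55 UMIs and a highest of 2541 in a single cell that held 45.8% of the sum. Against a floor of 3 UMIs over the NCD cells, its level was at least 504-fold higher in HFD. Mmp12, which degrades elastin, had 4821 UMIs in 14 of 19 HFD cells and none in NCD, at least 437-fold higher. Gpnmb and Mmp12 were thus absent from the counts of all 18 NCD cells and present in most HFD cells. Trem2, the lipid receptor that drives the lipid-associated state, had 1091 UMIs in 17 of 19 HFD cells and 7 in 2 of 18 NCD cells, 42.4-fold higher (20.5 to 106). Trem2 and Gpnmb were found together in 13 of 19 HFD and 0 of 18 NCD cells, and in 1 of 12 KO and 0 of 7 WT cells. In Treg barcodes Gpnmb was found in 20 of 1805 in HFD and 29 of 2593 in NCD.

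Other genes at the upper end were found in HFD members alone or nearly so. Syngr1, a vesicle protein gene, had 227 UMIs in 14 of 19 HFD cells and none in NCD, and Vsig8 had 238 UMIs in 10 HFD cells and 1 in NCD. F7, coagulation factor VII, had 100 UMIs in 8 HFD cells, and Nes, an intermediate filament gene, 91 in 7, with no UMI of either in NCD. F7 and Nes had no UMI in KO or WT C1q-bearing members either. At the lower end, Plbd1, a phospholipase-like gene, had no UMI in HFD and 73 in 11 of 18 NCD cells, at least 89.4-fold lower. Il2ra and Gata3, which Treg cells express, had no UMI in HFD and 39 and 32 in NCD, and Il1rl1, the IL-33 receptor of VAT Treg cells, 1 in HFD and 47 in 11 NCD cells. The lower end thus held both myeloid and Treg cell genes.

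Genes of lipid uptake and storage were among the 16. Cd36, a fatty acid and oxidised lipoprotein receptor, had 2085 UMIs in HFD and 33 in NCD C1q-bearing members, 17.2-fold higher (12.2 to 25.0). Lpl, the lipase that frees fatty acids from lipoproteins, had 2186 and 59 UMIs in HFD and NCD, 10.1-fold higher (7.79 to 13.3). Plin2, which coats lipid droplets, was 5.61-fold higher (4.60 to 6.91), and Lipa, the lysosomal acid lipase, 22.8-fold higher (12.3 to 47.7). Fabp4 and Fabp5, fatty acid carriers, had 719 and 1670 UMIs in HFD and 10 and 3 in NCD, 19.6-fold (10.6 to 41.0) and 152-fold higher (51.8 to 735). Uptake, storage and lysosomal release of lipid were thus all represented. Cd9, a tetraspanin, was 64.0-fold higher (24.9 to 235), and Itgax, which encodes CD11c, 7.78-fold higher (3.26 to 24.3). Spp1, osteopontin, had 1309 UMIs in HFD and none in NCD, but 86.1% of them came from 1 cell of the 10 that had any.

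Of 18 lysosome genes, 16 were 2-fold higher and 1 lower in HFD than in NCD C1q-bearing members, with a median log2 ratio of 2.07. Ctsl, a cysteine protease, had 7365 UMIs in 17 of 19 HFD cells and 10 in 5 of 18 NCD cells, 200.5-fold higher (109 to 418). Ctsb was 19.4-fold higher (16.1 to 23.5), Ctsd 13.6-fold (10.7 to 17.4) and Cd68, a lysosomal glycoprotein of macrophages, 10.3-fold (7.57 to 14.4). Ctsk had 1505 UMIs in HFD and none in NCD, at least 137-fold higher. In iron handling, 5 of 6 measured genes were higher: Fth1, the ferritin heavy chain, had 11700 UMIs in HFD and 478 in NCD, 6.66-fold higher (6.08 to 7.32), and Hmox1, which degrades haem, was 2.31-fold higher (1.45 to 3.88). Of 11 measured genes of sterol uptake, storage and efflux, 7 were higher and none lower, among them the exporters Abca1 (3.59-fold, 1.46 to 11.4) and Abcg1 (5.53-fold, 1.81 to 27.6).

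**Figure D5:**
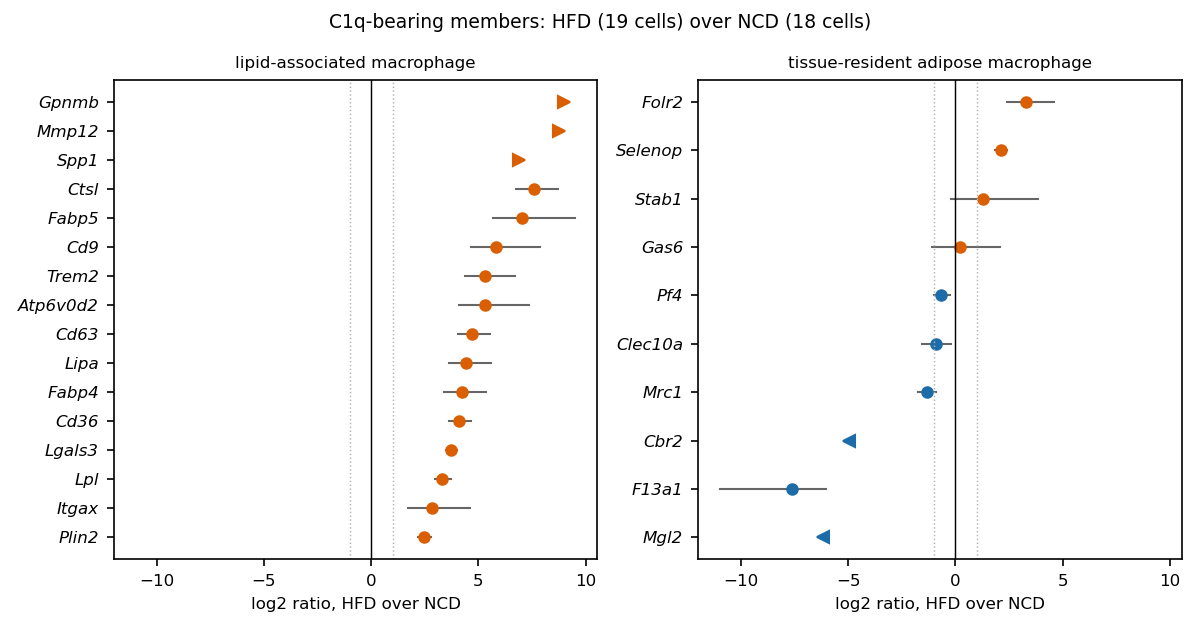
Log2 ratio of HFD over NCD (x axis) in C1q-bearing members for the measured genes of the lipid-associated list (left) and the tissue-resident list (right); circles with bars are ratios with 95% counting intervals, triangles are bounds for genes with no UMI in one condition, and dotted lines mark 2-fold. All 16 lipid-associated genes lie right of 2-fold, from 2.48 for Plin2 upwards, whereas the resident list has 3 genes above 2-fold higher and 4 beyond 2-fold lower.

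The tissue-resident list did not move as 1 group. Of its 15 genes, 10 were measured in C1q-bearing members, of which 3 were 2-fold higher in HFD than in NCD and 4 lower, with a median log2 ratio of -0.77. Folr2, a folate receptor, had 308 UMIs in 16 of 19 HFD cells and 8 in 3 of 18 NCD cells, 10.5-fold higher (5.25 to 24.5), and Selenop, a selenium carrier, was 4.32-fold higher (3.58 to 5.26). F13a1, a clotting factor chain, had 2 UMIs in HFD and 132 in NCD, a log2 ratio of -7.61 (-10.98 to -6.04). Mgl2, a lectin of alternatively activated cells, had none in HFD and 59 in 12 of 18 NCD cells, at least 72.3-fold lower. Resident genes thus stood on both sides of equal levels. Mrc1, the mannose receptor, was 2.48-fold lower (log2 ratio -1.31, -1.73 to -0.89), and Cd163, a haemoglobin scavenger receptor, had 1 UMI in HFD and 18 in NCD. Csf1r was near equal, with 284 CPM in HFD and 324 CPM in NCD (log2 ratio -0.20, -0.62 to 0.26).

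Retnla is a rule gene, and its values are given as a description. It had no UMI in any of the 25 HFD members and 5045 UMIs in 59 of 148 NCD members, at least 652-fold lower in HFD. In the Srebf2 experiment it had 725 UMIs in 6 of 29 KO members and 238 in 8 of 27 WT members, and single cells held 56.3% and 58.4% of those sums. HFD was thus the 1 condition of 4 with no Retnla transcript. Within C1q-bearing members it had 0 UMIs in HFD and 1109 in 9 of 18 NCD cells, of which 1 cell held 71.3%.

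Promoter windows of Retnla and Gpnmb, at the lower end over all members and the upper end in C1q-bearing members, are shown with matches of motifs for factors known in macrophages. They are RefSeq windows on GRCm38.p6, plus strand, 250 bases before each gene's start, and capitals mark matches of any of 5 motifs searched on both strands: GAGGAAGT (PU.1), CACGTG (E-box), CATGTG (M-box), TGANTCA (AP-1) and TTC with GAA 4 bases later (STAT6).
Retnla, chr16:48842359-48842608: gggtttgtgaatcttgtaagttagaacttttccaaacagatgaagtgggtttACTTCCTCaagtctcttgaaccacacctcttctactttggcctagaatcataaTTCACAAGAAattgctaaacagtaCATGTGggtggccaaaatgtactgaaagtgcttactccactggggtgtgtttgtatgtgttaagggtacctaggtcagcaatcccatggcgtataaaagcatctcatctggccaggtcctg
Gpnmb, chr6:49036268-49036517: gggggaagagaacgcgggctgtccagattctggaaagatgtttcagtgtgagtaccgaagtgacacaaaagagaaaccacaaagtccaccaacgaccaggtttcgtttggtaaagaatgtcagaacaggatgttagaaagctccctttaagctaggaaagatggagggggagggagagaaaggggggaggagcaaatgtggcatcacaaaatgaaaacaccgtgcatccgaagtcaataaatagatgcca

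The Retnla window held ACTTCCTC, the PU.1 motif on the other strand, 198 bases before the start, TTCACAAGAA, a STAT6 motif, at 145, and CATGTG, an M-box, at 121. These 3 matches do not overlap. Of 32851 promoter windows of this length, the PU.1 motif was found in 2.44%, the STAT6 motif in 5.85%, the M-box in 12.3%, the AP-1 motif in 6.75% and the E-box in 6.02%. The Gpnmb window held none of the 5, which says only that these letters are not in this window. Of the lipid-associated list, 12 of 16 genes matched a window, and of these 12 an AP-1 motif was found in 3, a PU.1 motif, an M-box and a STAT6 motif in 2 each, and an E-box in 1. Of the tissue-resident list, 13 of 15 genes matched, with an M-box in 6, a PU.1 motif in 2, an AP-1 and a STAT6 motif in 1 each and an E-box in 0. No conclusion about binding follows from a match.

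MHC class II transcripts were lower in HFD than in NCD C1q-bearing members for all 8 measured genes of 9, with a median log2 ratio of -3.31. Cd74 had 1634 UMIs in HFD and 3229 in NCD, 7.26-fold lower by CPM (log2 ratio -2.86, -2.95 to -2.77), and H2-Aa was 7.08-fold lower. Ciita, the factor that switches class II genes on, had 1 UMI in HFD and 25 in 9 of 18 NCD cells. The class II share of a single cell's UMIs had a median of 0.113% in HFD (0 to 4.67%) and 3.14% in NCD (0.212 to 5.51%), so the ranges overlapped. Ccr2 had 3 UMIs in 1 HFD cell and 131 in 14 of 18 NCD cells, a log2 ratio of -7.11 (-9.62 to -5.75), and the 4 measured monocyte genes were all 2-fold lower. Dendritic cell genes were sparse in these cells, at 332 CPM in HFD and 484 CPM in NCD. Itgax, which is higher in HFD, stands in both this list and the lipid-associated one. Of the 12 dendritic cell genes, 7 had no UMI in HFD and 3 had none in NCD, so the sums do not stand for like dendritic content.

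Scavenger receptor and complement genes were more often higher than lower in HFD C1q-bearing members. Of 11 measured phagocytic and scavenger receptors, 6 were 2-fold higher and 3 lower (median log2 ratio 1.29), of 14 Fc receptor and ITAM signalling genes 4 were higher and 4 lower (0.57), and of 5 complement genes 3 were higher and 1 lower (1.68). Ms4a7 had 445 UMIs in 18 of 19 HFD cells and 4 in 4 of 18 NCD cells, 30.3-fold higher (11.7 to 112). Adgre1, found in 16 HFD and 8 NCD cells, was 3.59-fold higher (2.35 to 5.74). Identity genes outside the rule were thus not uniform: of 19 measured, 10 were higher and 3 lower. C1qc, part of the C1q split that chose these cells, stands in both the complement and the identity list. Its part in these counts and medians is therefore a description.

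Chemokines and inflammatory genes were mixed. Of 10 measured chemokines, 4 were 2-fold higher and 2 lower in HFD than in NCD C1q-bearing members, and Ccl6 and Ccl9 stood near equal (log2 ratios -0.34 and -0.23). Cxcl1 and Cxcl2, which attract neutrophils, had 176 and 979 UMIs in HFD and 0 and 123 in NCD, and Cxcl2 was 2.17-fold higher (1.79 to 2.63). Cxcl1 was found in 5 HFD cells, and 1 cell held 86.2% of the Cxcl2 UMIs of NCD. Il1b had 18 UMIs in 3 HFD cells and 35 in 4 NCD cells, and Il1rn, which blocks its receptor, had 114 in 11 HFD cells and 4 in 4 NCD cells. Of 8 measured genes of alternative activation, 6 were lower and 1 higher. Neutrophil genes summed to 38.9 CPM in HFD and 87.9 CPM in NCD, and mast cell, basophil and eosinophil genes to 0 in both. Stromal and adipocyte genes summed to 327 CPM in HFD and 71.4 CPM in NCD, with 7 of 12 at 0 in HFD and 8 of 12 at 0 in NCD, and their part in the results was not tested.

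C1q-bearing members without T cell RNA were 13 HFD and 3 NCD cells with 566666 and 15534 UMIs, so the NCD side was shallow. Gpnmb was at least 49.2-fold higher in HFD there, Mmp12 at least 43.0-fold, Trem2 at least 8.73-fold, Ctsl 49.1-fold (19.2 to 180.1) and Lpl 3.48-fold (2.07 to 6.38). Cd74 was 9.71-fold lower. Of the 16 lipid-associated genes 11 had no UMI in these NCD cells, and with those at their bound the list's median log2 ratio was 3.11. Lpl had 14 UMIs in these 3 NCD cells. In all members without the deepest one of each condition, the list's median was 5.44.

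The first experiment deletes Srebf2, which encodes SREBP2, the transcription factor of cholesterol synthesis, in Foxp3-expressing cells. Among members Srebf2 had 4 UMIs in 3 of 29 KO cells and 12 in 7 of 27 WT cells, a ratio of 0.344 (0.0808 to 1.13), so a difference was not detectable at this depth. In members without T cell RNA it had 1 UMI in KO and 3 in WT. In Treg barcodes it stood at 3.06 CPM in KO and 65.4 CPM in WT. The other WT UMIs lay in members with T cell RNA, where those of a Treg cell and of a myeloid cell cannot be told apart. Apobec3, a cytidine deaminase gene, had 1 UMI in 1 of 29 KO members and 17 in 11 of 27 WT members, in the direction of the Treg barcodes, where it stood at 28.9 CPM in KO and 210 CPM in WT.

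Of 3487 genes with 20 or more UMIs over both conditions, 230 (6.6%) were 2-fold higher in KO and 134 (3.84%) lower, with a median log2 ratio of 0.04. Of 20 macrophage identity genes outside the rule, 19 were measured, 5 were higher in KO and none lower, with a median of 0.48. Of 18 lysosome genes 3 were higher and none lower (median 0.70), and of 7 measured class II genes none passed 2-fold (median -0.34). T cell genes had a median of 0.04, and they summed to 1716 CPM in KO and 1786 CPM in WT. KO members held 12 C1q-bearing cells of 29 and WT members 7 of 27, and the part of that makeup in the higher macrophage genes was not tested.

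Counts for inflammatory genes and chemokines overlap, since Ccl3 and Ccl4 stand in both lists. Of 6 measured inflammatory genes 3 were 2-fold higher and none lower (median log2 ratio 1.12), and of 9 chemokines 4 were higher and 1 lower (0.73). The 3 higher inflammatory genes were Ccl3, Ccl4 and Il1b, and 1 KO cell held 60.4%, 64.7% and 72.8% of their KO UMIs, so these counts rest on single cells. Il1b had 114 UMIs in 5 KO cells and 40 in 8 WT cells. Of 10 genes of alternative activation 2 were higher and 3 lower (-0.43), and of 10 measured lipid-associated genes 2 were higher and none lower (0.77). Of 17 cholesterol synthesis genes 1, Fdps, reached 20 UMIs, and the list summed to 253 CPM in KO and 698 CPM in WT. In C1q-bearing members it had 15 UMIs in KO and 10 in WT (264 and 313 CPM). In C1q-low members it had 37 and 138 UMIs (248 and 766 CPM), and 14 of 17 KO and 17 of 20 WT cells of that set had T cell RNA. Members without T cell RNA had 15 UMIs of the list in KO and 42 in WT (220 and 1059 CPM). The source of the difference was not tested.

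Some genes of members stood well apart between KO and WT. Cd14, a receptor for bacterial lipopolysaccharide, had 66 UMIs in 12 KO cells and 13 in 7 WT cells, 5.24-fold higher (2.86 to 10.4). Ms4a7, a macrophage membrane gene, had 47 UMIs in 7 KO cells and 10 in 5 WT cells, 4.85-fold higher (2.42 to 10.8). Mpeg1, perforin-2, had 79 UMIs in 16 KO cells and 18 in 7 WT cells, 4.53-fold higher (2.69 to 8.03). These 3 macrophage genes were named because they stood among the 12 highest ratios, so their presence in more KO than WT cells describes that choice. C1q-bearing members also numbered 12 in KO and 7 in WT, and the part of that makeup was not tested. Mgl2 had 13 UMIs in 4 KO cells and 53 in 10 WT cells, 3.95-fold lower, and Fdps, an enzyme of the mevalonate pathway, had 7 UMIs in 6 KO cells and 44 in 8 WT cells, 6.09-fold lower, with 47.7% of the WT sum in 1 cell. In Treg barcodes Fdps stood at 22.4 CPM in KO and 49.5 CPM in WT. Cd24a, a surface glycoprotein gene, had 21 UMIs in 6 KO cells and 1 in WT, 21.7-fold higher (3.48 to 896). The chemokines Ccl3 and Ccl4 were higher in KO (log2 ratios 3.33 and 1.98), with the single cells given above.

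Within C1q-bearing members, 12 in KO and 7 in WT with 56778 and 31962 UMIs, 62 of 668 genes (9.28%) were 2-fold higher in KO and 68 (10.2%) lower. Of 12 measured tissue-resident genes, 6 were 2-fold lower in KO and none higher, with a median log2 ratio of -0.95 beside -0.09 for all genes. F13a1 had 119 UMIs in KO and 198 in WT, 2.96-fold lower, with 85.7% of the KO and 76.3% of the WT sum in 1 cell each. Selenop had 155 UMIs in 10 KO cells and 185 in 6 WT cells, 2.12-fold lower (log2 ratio -1.08, -1.40 to -0.77). Single cells thus held most of the F13a1 UMIs, and 63.9% of the KO and 41.6% of the WT UMIs of Selenop. Ccl8, a chemokine of resident macrophages, had 93 UMIs in 5 KO cells and 141 in 4 WT cells, 2.69-fold lower, and Igf1, a growth factor, had 4 in 3 KO cells and 17 in 4 WT cells, 7.55-fold lower. Apoe had 1433 UMIs in KO and 446 in WT, 1.81-fold higher (1.63 to 2.02), and Ctss, a cathepsin, 77 and 16 UMIs, 2.71-fold higher (1.57 to 4.97). Apoe is a rule gene, so its value is a description. A single barcode held 30.8% of all KO UMIs and another 28.5% of all WT UMIs of these members, which the intervals do not cover. The resident list's share of a single cell's UMIs had a median of 0.163% in KO (0 to 2.62%) and 2.62% in WT (0.0297 to 4.02%), and these ranges overlapped. T cell RNA was found in 5 of 12 KO and 4 of 7 WT cells here, and in members of either C1q set without it the list's median share was 0.146% in KO (10 cells) and 0.992% in WT (6 cells). In the sums the lower resident list was lost there: without T cell RNA, 4 of 11 measured genes were higher in KO and 3 lower (median log2 ratio 0.38), and in C1q-bearing members without it 3 of 9 were higher and 3 lower (-0.24).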

How the data were processed

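The deposited files hold raw UMI counts per gene and barcode, 1 filtered matrix for each experiment, made by the authors with Cell Ranger 7.1.0 (Srebf2 experiment) and 7.0.1 (diet experiment) per the file headers. Version 7.0.1 and the genome build mm10 stand in the submitters' processing notes. No gene annotation version is given in the sources used here. The 9036 and 11456 deposited barcodes had at least 500 UMIs each, over 32285 gene rows, with 2 hashtag rows per experiment.

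Barcodes were filtered and members chosen by the rule given in the results. Members, gene lists and the C1q split were chosen with earlier results of these data known. Members' counts were summed per condition and scaled to CPM, and log2 ratios had 0.5 counts added to each sum. Genes with 20 or more UMIs over both conditions were compared, and 2-fold was the limit of size; with 1 pool per condition no test was possible. Shares have Clopper-Pearson intervals, ratios exact conditional binomial ones, all at 95%. A count of 0 was set to a floor of 3 counts over the group for bounds. No doublet caller was run: barcodes with under 90% on either hashtag were left out, and T cell RNA is reported instead. The genes named were the 8 rule genes, Cd3e, Foxp3, Srebf2 and Apobec3, the 15 leading over Treg barcodes, the 12 highest and 12 lowest ratios of each comparison in which no barcode held over 50% of the higher sum, and up to 4 of each of 33 lists farthest from equal levels; not all of them are printed, and other list members were named after their values were seen. Thinning used 1500 UMIs and seed 11. Alternatives covered the rule, the hashtag share, T cell RNA, TMM scaling, the minimum, thinning and per-barcode means; those on the C1q split and on the deepest member were added after seeing the data. Promoter windows came from RefSeq tables of GRCm38.p6. Calculations used Python 3.11.15, numpy 2.4.6, scipy 1.17.1, pandas 2.3.3, matplotlib 3.10.9, and R 4.3.3 with edgeR 4.0.16 for TMM factors, and were tested on simulated data.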

Additional observations from a re-analysis of the deposited data

How the results depend on the processing

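With 1 pool per condition the results have no replicate error, and depth limits the rest: 7 WT and 12 KO C1q-bearing members leave most KO ratios with intervals that include equal levels. No paired analysis was possible because each condition is 1 pool and no result comes from a test. The log2 ratio of member shares was 0.84 in KO against WT with 5 or more rule genes, beside -0.06 as reported; in HFD against NCD it was -1.65 with 5 or more rule genes and -0.49 without T cell RNA, beside -2.37, and for C1q-bearing members 2.31 without T cell RNA, beside 0.28. Cd3e was found in 33.3% of KO, 26.7% of WT and 38.3% of NCD members after thinning to 1500 UMIs, in 44.4% of WT and 23.5% of HFD members with 5 or more rule genes, and in 90% of WT members at a hashtag share of 95%. Foxp3 was found in 16.7% of KO, 13.3% of WT and 18.1% of NCD members after thinning. Genes 2-fold apart numbered 364 in KO against WT, and 193 with 5 or more rule genes, 169 without T cell RNA, 4811 with no minimum, 51 with a minimum of 50 UMIs and 130 in C1q-bearing members. In HFD against NCD they numbered 3594, and 1899 without T cell RNA, 6675 with no minimum and 2173 in C1q-bearing members. TMM scaling gave 15.3% of genes higher and 22.6% lower in HFD, beside 11.8% and 28.6%. For HFD against NCD, the lipid-associated median of 5.70 was 4.78 as a mean of per-barcode CPM and 4.99 in C1q-bearing members, and the class II median of -3.44 was -4.10 without T cell RNA and -2.91 per barcode. The lysosome median of 2.80 was 2.39 with 5 or more rule genes, 2.34 without T cell RNA, 3.03 with TMM, 2.18 per barcode and 2.07 in C1q-bearing members. Of list medians that were 2-fold or more from equal, the sign turned in HFD against NCD for T cell genes per barcode (0.18), for Treg genes without T cell RNA (1.09, from 1 gene), for inflammatory genes without T cell RNA (0.80) and in C1q-bearing members (1.11), and for proliferation genes without T cell RNA (0.65) and in C1q-bearing members (0.25); the cause was not tested. Of 332 list medians over 42 list comparisons and 8 settings, 35 turned sign, 23 in KO against WT and 12 in HFD against NCD. Among the KO turns, the tissue-resident median of -0.28 was 0.38 without T cell RNA, and the lipid-associated median of 0.77 was -0.21 with 5 or more rule genes. The C1q-bearing setting and that without the deepest member were chosen after seeing the data.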
